A study of Mus musculus with 11 samples.

Results

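Toll-like receptors and their escort protein Unc93b1 were followed in mouse peritoneal macrophages that had received either a microRNA-150 (miR-150) mimic or a negative control. The 10 genes were chosen by name: the cell-surface receptors Tlr1, Tlr2, Tlr4 and Tlr6, the endosomal receptors Tlr3, Tlr7, Tlr8, Tlr9 and Tlr13, and Unc93b1. They are 10 of 31936 genes in the deposited table, and all 10 were among the 12969 genes with enough signal to test. The cells were thioglycollate-elicited peritoneal macrophages of female mice, the inflammatory cells that gather in the abdominal cavity after an irritant is injected. The control group had 5 libraries, numbered 1, 2, 3, 4 and 6, and the mimic group had 6, numbered 1 to 6. The mimic is a synthetic RNA that supplies miR-150 activity, and the series places miR-150 in the abnormal blood vessel growth of age-related macular degeneration. Strain, age, dose and time are not stated in the labels, nor whether replicates were separate animals or cultures, so p-values measure the spread between these libraries, which may be technical.

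Toll-like receptors recognise molecules of microbes and, in some settings, of damaged cells. Receptors on the cell surface bind mainly lipids and lipoproteins, while the endosomal receptors bind nucleic acids that the cell has taken up. The endosomal receptors, and some of those on the surface, leave the endoplasmic reticulum with the help of Unc93b1, a membrane protein without which nucleic acid sensing fails. Engaged receptors recruit the adaptors Myd88 or Ticam1, and kinases then activate NF-kappaB and interferon regulatory factors. Macrophages carry many of these receptors and answer them with cytokines and type I interferon.

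Libraries held 18538509 to 22668862 reads assigned to genes in the control group and 20313901 to 25473814 in the mimic group. Values below are the deposited log2 CPM (reads assigned to a gene, over a scaled library total). That total was 0.97 to 1.03 times the reads assigned to genes in the library. Differences are mimic minus control on that log2 scale. Mimic replicates 3, 4 and 6 stood apart: across 12933 genes, which are not independent replicates, the Spearman correlation between a library's deviation from the gene mean and transcript length was 0.293 to 0.353 in these 3 and -0.357 to 0.05 in the other 8. The value of -0.357 was that of mimic replicate 1, below the control range of -0.259 to -0.155. Each difference was therefore also computed without mimic replicates 3, 4 and 6 and after a correction for transcript length. Mimic replicate 1 stays in the first of these fits. The 7 macrophage markers were abundant and summed to 6202 to 6591 CPM in controls and 6059 to 7196 with the mimic. Of these 7, Fcgr1 rose by 1.32 (limma adjusted p = 4.05e-09) and Adgre1 by 0.18 (adjusted p = 0.0079), and the other 5 did not pass. Markers of other cells that carry these receptors were scarce. The 5 B cell markers summed to 1.64 to 2.17 CPM in controls and 1.21 to 1.97 with the mimic, and the 4 conventional dendritic cell markers to 3.54 to 4.85 and 3.22 to 4.56. The 4 plasmacytoid dendritic cell markers summed to 1.15 to 1.69 CPM and 1.47 to 2.34, of which Ccr9 passed as higher (difference 0.63, limma adjusted p = 0.0417), while Siglech, the marker most particular to these cells, had 3 and 5 reads over the 2 groups. The 3 eosinophil markers summed to 33.4 to 35.6 CPM and 27.0 to 28.7, nearly all of it Siglecf, which fell by 0.31 (limma adjusted p = 4.94e-05), while Prg2 and Epx had at most 10 reads over a group. The part of these signals in the members' values was not tested. In such bulk samples a change in RNA per cell cannot be told apart from a change in the share of cells that carry it.

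Of the 10 members, 8 rose with the mimic and 0 fell in the limma fit (Benjamini-Hochberg adjusted p below 0.05). Across all tested genes 15.4% were called higher and 14.6% lower. At an unadjusted p below 0.05, 0 members were lower, and a voom fit with sample weights also called 0 lower, beside 22.8% of all genes called higher and 20.5% lower in that fit. All 5 endosomal receptors rose, with differences from 0.24 to 0.84 and a median of 0.53. Of the 4 cell-surface receptors, Tlr1, Tlr2 and Tlr4 rose, and the differences of the 4 ran from 0.092 to 0.39 with a median of 0.26. The median over all tested genes was 0.00071. For 6 members, Tlr1, Tlr3, Tlr4, Tlr7, Tlr8 and Tlr13, every mimic library lay above every control, as was so for 8.89% of all tested genes. Without mimic replicates 3, 4 and 6 the higher count was 9, beside 9.42% of genes called higher and 6.95% lower in that fit. After the length correction it was again 8, beside 16.4% and 14.9%.

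**Figure D1:**
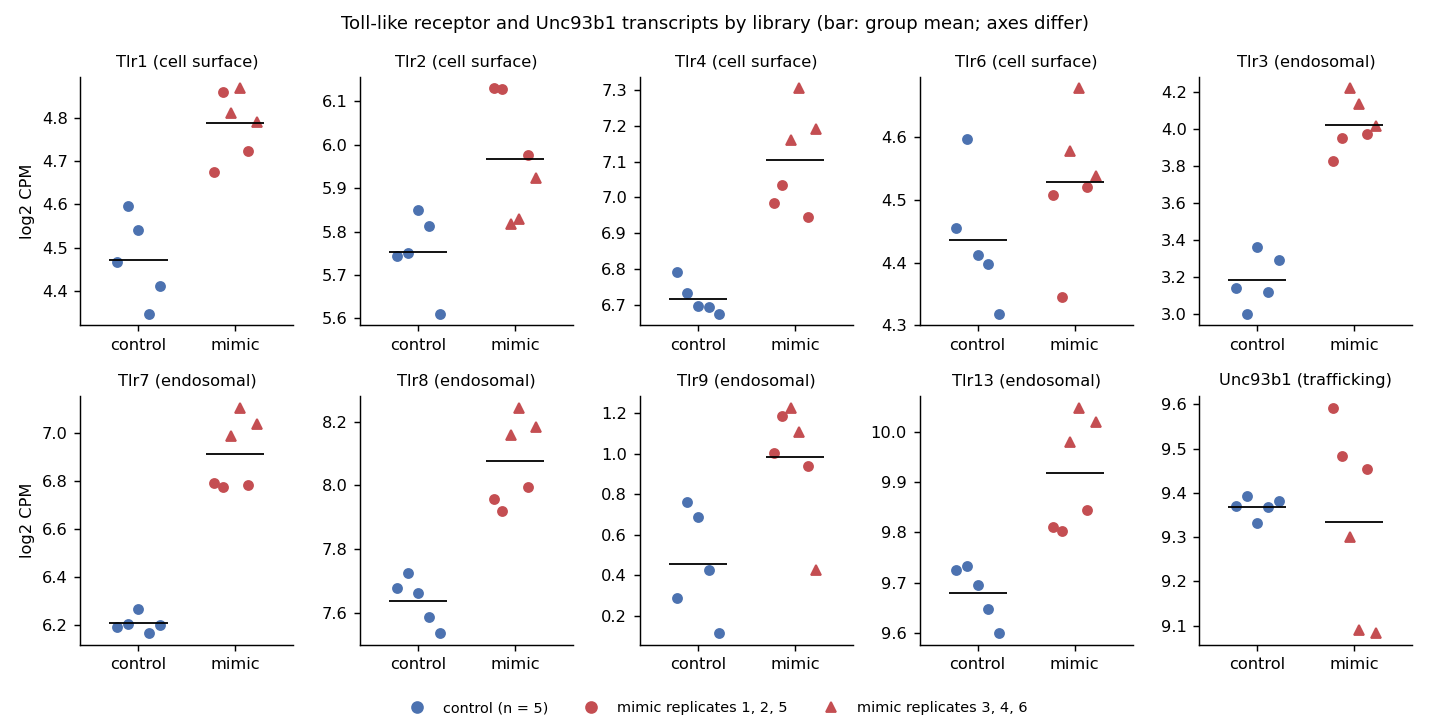
Each panel plots 1 gene, with log2 CPM on the vertical axis and the 2 groups on the horizontal axis; points are single libraries, bars are group means, and triangles mark mimic replicates 3, 4 and 6. The panels of Tlr1, Tlr3, Tlr4, Tlr7, Tlr8 and Tlr13 show all 6 mimic libraries above the 5 controls, while the Unc93b1 panel shows mimic libraries on both sides of the narrow control range of 9.33 to 9.39.

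Tlr3, the receptor for double-stranded RNA (ENSMUSG00000031639, chromosome 8, 45395665 to 45411080, GRCm38, minus strand), changed most. Its log2 CPM was 3.14, 3.00, 3.36, 3.12 and 3.29 in control replicates 1, 2, 3, 4 and 6. With the mimic it ran from 3.83 to 4.22 with a median of 4.00. The lowest mimic library thus lay well above the highest control. The means were 3.18 ± 0.14 (SD, n = 5) and 4.02 ± 0.14 (SD, n = 6), a difference of 0.84 ± 0.079 (SE; limma adjusted p = 6.78e-07), or 1.79-fold. The rise rested on 162 to 232 reads per control library and 279 to 449 per mimic library. It was 0.73 without mimic replicates 3, 4 and 6 and 0.80 after the length correction. Exons of Tlr3 share 381 nt with the antisense gene Gm45542 on the opposite strand in the GENCODE M21 annotation, and since the strand setting of the counting was not given, reads of both cannot be told apart there.

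Tlr7, which binds single-stranded RNA and guanosine (ENSMUSG00000044583, chromosome X, 167304929 to 167330558, minus strand), was the next most changed member by size. Controls had log2 CPM of 6.19, 6.21, 6.27, 6.17 and 6.20, in the same order of replicates. The mimic libraries ran from 6.77 to 7.10 with a median of 6.89. Controls were tight and the groups did not overlap, and within the mimic group replicates 3, 4 and 6 were the 3 highest. The means were 6.21 ± 0.038 (SD, n = 5) and 6.91 ± 0.15 (SD, n = 6), a difference of 0.71 ± 0.060 (SE; limma adjusted p = 1.75e-07), or 1.63-fold. Without mimic replicates 3, 4 and 6 the difference was 0.58 (limma adjusted p = 7.11e-12).

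Tlr8 (ENSMUSG00000040522, chromosome X, 167242696 to 167264329, minus strand), a relative of Tlr7 whose human counterpart senses RNA breakdown products, lies 40599 nt from Tlr7 on the same strand with no annotated gene between them. In the controls log2 CPM was 7.68, 7.72, 7.66, 7.59 and 7.54. With the mimic it ran from 7.92 to 8.24 with a median of 8.08. All mimic libraries were higher than all controls, again with replicates 3, 4 and 6 at the top. The difference was 0.44 ± 0.059 (SE; limma adjusted p = 4.80e-05), 1.36-fold, and 0.32 without those 3 libraries. Tlr7 moved further than its neighbour: the within-library difference Tlr7 minus Tlr8 went from -1.43 ± 0.073 (SD, n = 5) to -1.16 ± 0.027 (SD, n = 6). That shift of 0.27 had p = 0.00216 in a two-sided exact permutation test (adjusted p = 0.00758 over 7 pairs of members), with 6 of 6 mimic libraries above every control. It was 0.26 without mimic replicates 3, 4 and 6.

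Tlr13, the mouse sensor of bacterial ribosomal RNA (ENSMUSG00000033777, chromosome X, 106143204 to 106160493, plus strand), was the most abundant receptor. Its log2 CPM was 9.73, 9.73, 9.69, 9.65 and 9.60 in the controls and 9.80 to 10.05 with the mimic, with a median of 9.91. The gap between the groups was small, and mimic replicates 3, 4 and 6 lay above the other 3 mimic libraries. The difference was 0.24 ± 0.051 (SE; limma adjusted p = 0.00303), 1.18-fold. Without mimic replicates 3, 4 and 6 it was 0.14 (limma adjusted p = 0.00559), a move of more than 1.5 times. Tlr2, Tlr6 and Unc93b1 also moved by more than 1.5 times in that fit, Unc93b1 with a change of sign.

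Tlr9, the receptor for unmethylated CpG DNA (ENSMUSG00000045322, chromosome 9, 106222598 to 106226883, plus strand), was the scarcest member, with 20 to 36 reads per control library and 34 to 56 per mimic library. Its log2 CPM was 0.29, 0.76, 0.69, 0.43 and 0.12 in the controls and 0.43 to 1.23 with the mimic, with a median of 1.06. In 5 of 6 mimic libraries it was above every control, and mimic replicate 6 lay inside the control range. The difference was 0.53 ± 0.16 (SE; limma adjusted p = 0.0249). Tlr9 no longer passed in 3 fits that each omitted a single library. These omitted control replicate 1 (difference 0.48, adjusted p = 0.0594), control replicate 6 (difference 0.44, adjusted p = 0.0701) or mimic replicate 3 (difference 0.48, adjusted p = 0.0595). The authors' deposited table gives Tlr9 an adjusted p of 0.0901.

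Unc93b1 (ENSMUSG00000036908, chromosome 19, 3935186 to 3949340, plus strand) did not pass. Controls lay close together, at 9.37, 9.39, 9.33, 9.37 and 9.38 log2 CPM. The mimic libraries ran from 9.08 to 9.59 with a median of 9.38, and 3 lay above and 3 below all controls. Those below were replicates 3, 4 and 6, and those above were replicates 1, 2 and 5. The means were 9.37 ± 0.023 (SD, n = 5) and 9.33 ± 0.21 (SD, n = 6), and the difference was -0.035 ± 0.080 (SE; limma adjusted p = 0.766, 95% interval -0.21 to 0.14). Without mimic replicates 3, 4 and 6 it turned to 0.14 ± 0.035 (SE) and passed as higher (limma adjusted p = 0.0049), while after the length correction it was -0.0053 (adjusted p = 0.96). The direction of Unc93b1 therefore depends on these 3 libraries.

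Each endosomal receptor was also set against Unc93b1 within libraries. The log2 ratio to Unc93b1 shifted by 0.87 for Tlr3 and 0.74 for Tlr7 (exact permutation p = 0.00433 for each, adjusted p = 0.00758 over the 7 pairs). For Tlr9 the shift was 0.56 and for Tlr8 0.47 (exact permutation adjusted p = 0.0152 for both). For Tlr13 it was 0.27 and did not pass (exact permutation p = 0.123). All 6 mimic libraries were above every control for Tlr3, Tlr7 and Tlr8, 5 of 6 for Tlr9 and 4 of 6 for Tlr13. Without mimic replicates 3, 4 and 6 the shifts were 0.59 for Tlr3, 0.44 for Tlr7, 0.44 for Tlr9 and 0.18 for Tlr8, and -0.0014 for Tlr13. In that smaller comparison the exact permutation p was 0.0179 for Tlr3, Tlr7 and Tlr8, the smallest that 56 arrangements allow, 0.0357 for Tlr9 and 0.982 for Tlr13. The pairs were set up after the single values were known.

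Among the cell-surface receptors, Tlr4, which with Ly96 senses bacterial lipopolysaccharide (ENSMUSG00000039005, chromosome 4, 66827584 to 66930284, plus strand), showed the largest difference. Its log2 CPM was 6.79, 6.73, 6.70, 6.69 and 6.67 in the controls and 6.95 to 7.30 with the mimic, with a median of 7.10. The groups did not overlap. The difference was 0.39 ± 0.058 (SE; limma adjusted p = 0.000147), 1.31-fold, and 0.27 without mimic replicates 3, 4 and 6.

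Tlr2 (ENSMUSG00000027995, chromosome 3, 83836272 to 83841767, minus strand) binds bacterial lipoproteins as a pair with Tlr1 or Tlr6. Its log2 CPM was 5.74, 5.75, 5.85, 5.81 and 5.61 in the controls and 5.82 to 6.13 with the mimic, with a median of 5.95. The groups overlapped, with 4 of 6 mimic libraries above every control. Unlike Tlr4, the 2 libraries inside the control range were mimic replicates 3 and 4. The difference was 0.21 ± 0.064 (SE; limma adjusted p = 0.0198). It was 0.33 (adjusted p = 6.04e-05) without mimic replicates 3, 4 and 6, and did not pass without control replicate 6 (0.18, adjusted p = 0.0629).

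Tlr1 (ENSMUSG00000044827, chromosome 5, 64924679 to 64933563, minus strand), the partner of Tlr2 for triacylated lipoproteins, had log2 CPM of 4.47, 4.60, 4.54, 4.35 and 4.41 in the controls and 4.67 to 4.87 with the mimic, with a median of 4.80. All mimic libraries were above all controls, and the difference was 0.32 ± 0.055 (SE; limma adjusted p = 0.000673). Tlr6 (ENSMUSG00000051498, 64952031 to 64960097 on the same chromosome and strand), the partner for diacylated lipoproteins, had values of 4.46, 4.60, 4.41, 4.40 and 4.32 in the controls and 4.35 to 4.68 with the mimic, with a median of 4.53. Its groups overlapped, with 1 of 6 mimic libraries above every control, and the difference of 0.092 ± 0.062 (SE) did not pass (limma adjusted p = 0.274). The genes stand 18467 nt apart with no annotated gene between them. Tlr1 moved further than Tlr6: the within-library difference Tlr1 minus Tlr6 went from 0.036 ± 0.073 (SD, n = 5) to 0.26 ± 0.13 (SD, n = 6), a shift of 0.22 (exact permutation p = 0.00216, adjusted p = 0.00758 over the 7 pairs). Of the 50-base stretches in Tlr1 transcripts 15.4% also occur in other genes, Tlr6 among them, and for Tlr6 the share is 12.3%, with Tlr1 among the others. How the authors' counting treated reads from those stretches is not known, so the separate values of Tlr1 and Tlr6 are uncertain.

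As a check that uses no model across genes, two-sided exact permutation tests of the difference in means over 462 arrangements of the libraries gave p = 0.00216 for Tlr1, Tlr3, Tlr4, Tlr7 and Tlr8, the smallest that these group sizes allow. The exact permutation p was 0.00433 for Tlr13, 0.0173 for Tlr2, 0.0216 for Tlr9, 0.188 for Tlr6 and 0.734 for Unc93b1. The authors' deposited table lists log2 fold changes of 0.84 for Tlr3, 0.71 for Tlr7, 0.44 for Tlr8 and -0.045 for Unc93b1.

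**Figure D2:**
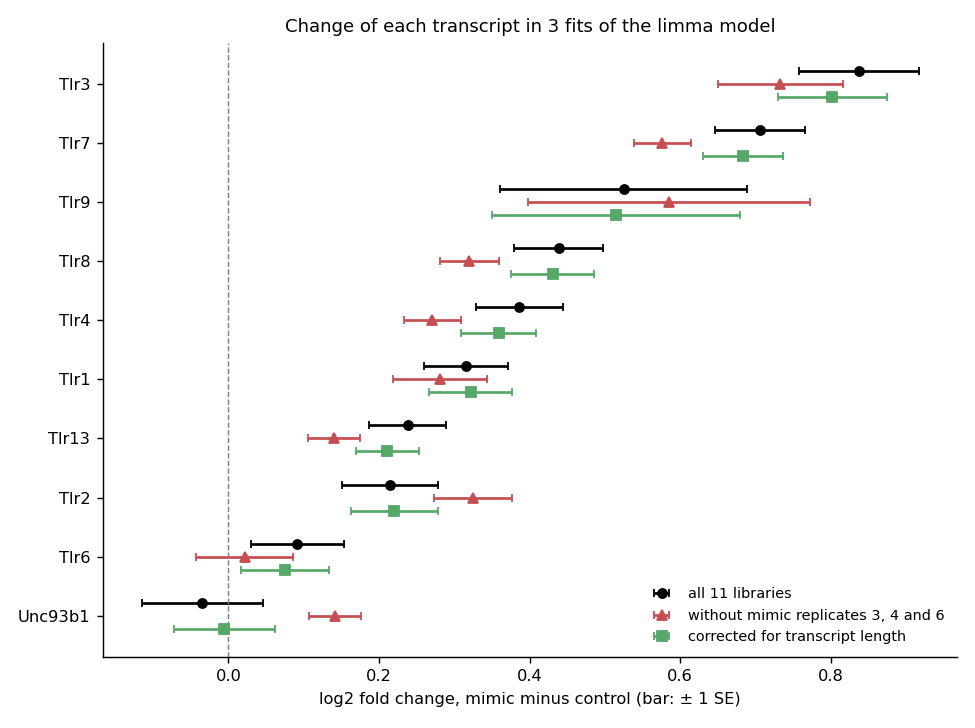
The horizontal axis is the log2 fold change (mimic minus control) and each row is 1 gene; symbols give the limma estimate with all 11 libraries, without mimic replicates 3, 4 and 6, and after the transcript length correction, and bars are 1 SE to each side. Tlr3 and Tlr7 lie farthest to the right in all 3 fits except that Tlr9 (0.59) passes Tlr7 (0.58) without the 3 libraries, and Unc93b1 moves from -0.035 to 0.14.

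Levels were compared between genes as CPM per kb of exon, using the union of annotated exons, and the order is a description. In controls Unc93b1 was highest at 218 ± 3.45 (SD, n = 5), then Tlr13 at 191 ± 7.34 and Tlr8 at 55.6 ± 2.89. Tlr4 (18.9 ± 0.61), Tlr7 (18.1 ± 0.48) and Tlr2 (17.9 ± 1.12) followed with overlapping ranges. Tlr1 (6.64 ± 0.46) and Tlr6 (5.81 ± 0.42) overlapped too, and Tlr3 (1.75 ± 0.18) and Tlr9 (0.39 ± 0.075) came last, each apart from its neighbours. With the mimic Tlr13 (225 ± 17.3, SD, n = 6) and Unc93b1 (215 ± 31.3) overlapped, and Tlr7 (29.6 ± 3.05) stood above Tlr4 (24.8 ± 2.41) with overlapping ranges. In single mimic libraries, Unc93b1 was above Tlr13 in replicates 1, 2 and 5, at 255, 236 and 231 against 209, 208 and 214. It was below Tlr13 in replicates 3, 4 and 6, at 208, 180 and 179 against 235, 246 and 241. With the longest transcript as length, Unc93b1 was above Tlr13 in mimic replicate 3 too, at 278 against 249. Both of these changes of place in the group means are absent when the longest transcript is used as the length, which alters the place of 4 members in the mimic group. Tlr1 no longer overlapped Tlr6, at 8.26 ± 0.43 against 6.20 ± 0.46.

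**Figure D3:**
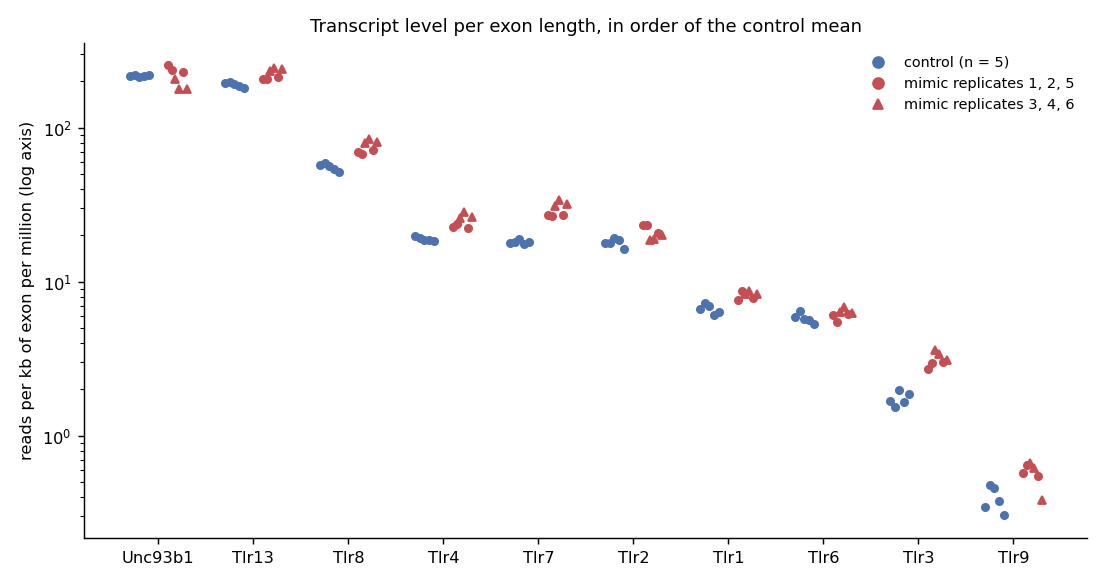
The vertical log axis gives CPM per kb of exon and the horizontal axis lists the genes by their control mean; each point is a library, blue for control and red for mimic, with triangles for mimic replicates 3, 4 and 6. Levels span from about 218 for Unc93b1 to 0.39 for Tlr9 in controls, and the red points of Tlr3 and Tlr7 stand clear of the blue ones.

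The balance between the transcripts shifted within libraries. Tlr13 made up 60.0% to 60.7% of the summed level of the 9 receptors in controls and 56.6% to 57.6% with the mimic, with no overlap. The share of the 5 endosomal receptors together was 84.1% to 84.5% in controls and 83.4% to 85.5% with the mimic, so the split between endosomal and surface receptors overlapped. The summed endosomal level over that of Unc93b1 was 1.15 to 1.27 in controls and 1.21 to 2.05 with the mimic, and the 3 highest values, from 1.68 to 2.05, were mimic replicates 3, 4 and 6. With Tlr13 left out of the sum, the ratio was 0.327 to 0.366 in controls and 0.391 to 0.680 with the mimic, and the groups did not overlap. Mimic replicates 1, 2 and 5 had the 3 lowest values of their group, from 0.391 to 0.439. The ratio without Tlr13 was not planned beforehand. Tlr13 was the only endosomal receptor whose own ratio to Unc93b1 did not pass. Unc93b1 lay below the control range in mimic replicates 3, 4 and 6.

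**Figure D4:**
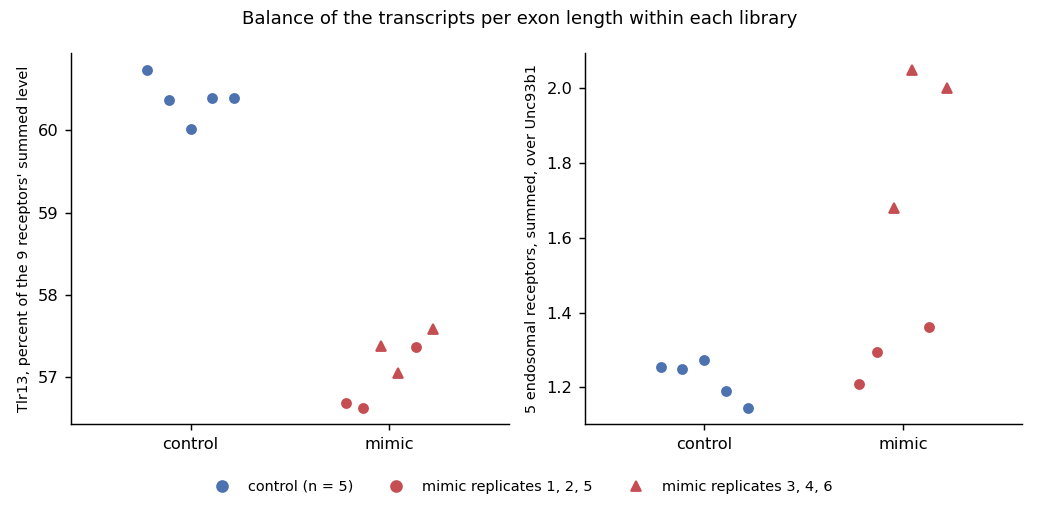
The left panel plots Tlr13 as a percent of the summed level (CPM per kb of exon) of the 9 receptors, and the right panel the summed endosomal receptors divided by Unc93b1; points are libraries and triangles are mimic replicates 3, 4 and 6. On the left the groups are apart (60.0% or more against 57.6% or less), and on the right the high mimic values are the 3 triangles.

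Promoter windows, which run from 250 bases before to 50 after the start of a transcript, were taken from RefSeq (GRCm38.p6) and were found for 7 of the 10 members, in 9 windows. They were searched on both strands for the interferon-stimulated response element core, GAAANNGAAA, the STAT site TTCNNNGAA and the PU.1-type site GAGGAA. Of 32851 windows of the same length in the genome, 3.44%, 8.30% and 28.3% hold these letters. Among the members' windows 1, 3 and 4 of 9 did. Tlr4, Tlr7 and Unc93b1 had no window and were not searched. Shown here are the windows of the most changed receptor (Tlr3) and of 2 receptors of the X chromosome that rose (Tlr8 and Tlr13). Also shown is a window of Tlr6, which did not pass and was the only searched member with the response element core. Capitals mark the matches. Tlr3 (chr8:45410331-45410630, minus strand) has none of the 3, Tlr8 (chrX:167264280-167264579, minus strand) a STAT and a PU.1-type match, Tlr13 (chrX:106143025-106143324, plus strand) a PU.1-type match, and Tlr6 (chr5:64959117-64959416, minus strand) 2 response element cores on the reverse strand that overlap each other, at bases 135 to 144 and 141 to 150 of the window.
Tlr3: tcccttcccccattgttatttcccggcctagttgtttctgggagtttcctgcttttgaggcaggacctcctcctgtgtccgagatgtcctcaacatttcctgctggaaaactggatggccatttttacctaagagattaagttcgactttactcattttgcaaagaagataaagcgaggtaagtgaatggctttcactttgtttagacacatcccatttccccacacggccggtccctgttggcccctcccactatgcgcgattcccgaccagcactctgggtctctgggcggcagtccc
Tlr8: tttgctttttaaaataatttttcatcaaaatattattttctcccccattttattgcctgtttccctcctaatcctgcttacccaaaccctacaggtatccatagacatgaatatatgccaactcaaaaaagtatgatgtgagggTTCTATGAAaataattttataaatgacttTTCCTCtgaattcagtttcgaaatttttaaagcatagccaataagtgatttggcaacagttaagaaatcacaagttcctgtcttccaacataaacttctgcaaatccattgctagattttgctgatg
Tlr13: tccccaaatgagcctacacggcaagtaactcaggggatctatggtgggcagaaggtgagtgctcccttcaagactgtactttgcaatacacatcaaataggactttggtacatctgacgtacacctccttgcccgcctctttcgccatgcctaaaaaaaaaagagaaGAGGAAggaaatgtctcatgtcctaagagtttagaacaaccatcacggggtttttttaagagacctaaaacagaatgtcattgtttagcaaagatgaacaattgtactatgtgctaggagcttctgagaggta
Tlr6: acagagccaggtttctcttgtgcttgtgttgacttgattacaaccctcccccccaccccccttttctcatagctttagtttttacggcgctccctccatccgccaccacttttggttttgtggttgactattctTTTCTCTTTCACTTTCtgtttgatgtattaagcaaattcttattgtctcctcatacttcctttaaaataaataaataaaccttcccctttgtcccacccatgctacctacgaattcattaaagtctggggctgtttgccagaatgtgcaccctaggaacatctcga
A second window of Tlr6 (chr5:64959999-64960298, minus strand), not shown, has 2 STAT matches and no response element core. A match is a description of letters and not a bound site. The window of Tlr3 starts from the RefSeq transcript, while the GENCODE gene extends to 45411080, so an upstream start lies outside it.

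Genes that act with the receptors were taken from 9 lists with 87 genes, of which 79 were tested. In the limma fit 24 were higher and 6 lower, or 30.4% and 7.59%, beside 15.4% and 14.6% of all tested genes, and the median difference was 0.064. Without mimic replicate 1 there were 27 higher and 10 lower (34.6% and 12.8%), beside 20.9% and 19.4% of all genes in that fit. The voom fit had 31 higher and 12 lower (39.2% and 15.2%), beside its 22.8% and 20.5% of all genes. The lists were chosen with earlier results of these data known. Of the other mouse Toll-like receptors, Tlr11, which senses profilin of protozoa, rose by 0.82 ± 0.24 (SE; limma adjusted p = 0.0172) from 56 reads over the controls to 131 over the mimic libraries. Tlr5 and Tlr12 were too low to test, with 8 and 12 reads over the controls and 22 and 17 over the mimic libraries.

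Co-receptors went different ways, with 2 of 6 higher and 1 lower. Cd180 and Ly86, which form a receptor complex related to that of Tlr4 and Ly96, rose by 0.53 ± 0.041 and 0.55 ± 0.087 (SE; limma adjusted p of 4.75e-08 and 0.000356), and by 0.49 and 0.74 without mimic replicates 3, 4 and 6. Cd14, which hands lipopolysaccharide to Tlr4, fell by 0.26 ± 0.072 (limma adjusted p = 0.0153), a call that was lost without those 3 libraries (-0.10, adjusted p = 0.125).

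Of 10 genes for folding and trafficking of the receptors, 3 were higher and 1 lower. Sdcbp, which encodes syntenin-1, a regulator of Unc93b1, rose by 0.25 ± 0.037 (SE; limma adjusted p = 0.00013). Hsp90b1, the chaperone that folds most of these receptors, rose by 0.29 ± 0.080 (limma adjusted p = 0.016), and Ap3b1, of the sorting adaptor AP-3, by 0.15 ± 0.046 (adjusted p = 0.0251). Neither call held without mimic replicates 3, 4 and 6 (0.11, adjusted p = 0.0738, and 0.074, adjusted p = 0.202). Gramd4 fell by 0.35 ± 0.059 (limma adjusted p = 0.000459).

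Among 10 endosomal proteases and nucleases, which process receptors or their nucleic acid ligands, 2 were higher and 1 lower. Pld4, a nuclease that degrades single-stranded nucleic acid, rose by 0.55 ± 0.084 (SE; limma adjusted p = 0.000221) and Ctss, cathepsin S, by 0.16 ± 0.052 (limma adjusted p = 0.0334). Dnase2a, the lysosomal DNase, fell by 0.20 ± 0.049 (limma adjusted p = 0.00782), and by 0.11 (adjusted p = 0.037) without mimic replicates 3, 4 and 6. Ctss no longer passed, leaving a higher count of 1, on omission of control replicate 3, 4 or 6, and likewise for mimic replicate 3 or 5. Its call was also lost with no filter on low values and without robust moderation. In those fits 5.11% to 15.4% of all genes were higher.

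Of 5 adaptors tested, Myd88 rose by 0.21 ± 0.053 (SE; limma adjusted p = 0.00862) and Pik3ap1, which links receptors to phosphoinositide 3-kinase, by 0.32 ± 0.039 (limma adjusted p = 1.61e-05), and the other 3 did not pass. Of 20 kinases and ubiquitin ligases 7 were higher and 2 lower. Peli1 rose by 0.28 ± 0.041 (SE), Tbk1, the kinase of Irf3, by 0.26 ± 0.043 and Traf6 by 0.23 ± 0.048, while Peli2 fell by 0.26 ± 0.043 (limma adjusted p from 0.000122 to 0.00228). Traf6 had a value of 0.15 (limma adjusted p = 0.0135) without mimic replicates 3, 4 and 6. The 7 became 4 without control replicate 3 or control replicate 6, when Irak2, Tab2 and Ikbke were no longer called. The same drop came with scaling by library totals, no filter on low values and the replicate block. In those fits 5.11% to 13.7% of all genes were higher. The 2 became 1 without control replicate 6, with no filter on low values and without mimic replicates 3, 4 and 6, when Peli3 was no longer called. There 4.59% to 11.1% of all genes were lower. Those 4 genes were chosen after their values were seen.

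Transcription factors downstream had 1 of 9 higher. Irf7, which the endosomal receptors use to start type I interferon transcription, went from 7.22 ± 0.23 (SD, n = 5) to 9.73 ± 0.22 (SD, n = 6), a rise of 2.51 ± 0.12 (SE; limma adjusted p = 5.31e-09). The median of the 9 was -0.11. Without mimic replicates 3, 4 and 6 together it was -0.021 and 0 were lower, beside 6.95% of all genes. After the length correction it was -0.10 and 0 were lower, beside 14.9%. Without mimic replicate 1 there were 4 lower (Irf3, Irf5, Rela and Relb), without mimic replicate 2 there were 3 (Irf3, Rela and Relb), and without control replicate 3 or mimic replicate 5 only Irf3 was lower. The shares of all genes called lower in those fits were 19.4%, 14.4%, 11.3% and 15.0%. Scaling by library totals gave 2 lower, Irf3 and Rela, beside 16.4% of all genes, and so did the replicate block, beside 13.8%. Other filters gave 1, Irf5 with no filter on low values and Irf3 with a stricter one, beside 4.59% and 17.4%. In the voom fit 5 were lower, with Nfkb2 added to the first 4, beside 20.5% of all genes. These 5 genes were named after their values were seen. Of 11 negative regulators 3 were higher and 1 lower. Tank rose by 0.34 ± 0.056 (SE), Socs1, an inhibitor of cytokine receptor signalling, by 0.67 ± 0.16 and Cyld, a deubiquitinase, by 0.18 ± 0.048, while Zc3h12a, an RNase that degrades cytokine mRNA, fell by 0.23 ± 0.074 (limma adjusted p from 0.000394 to 0.0305). The call of Zc3h12a was lost without control replicate 2, 3, 4 or 6 or mimic replicate 6, and with the replicate block. That of Cyld was lost without mimic replicates 3, 4 and 6 together (0.099, limma adjusted p = 0.108).

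Targets of Toll-like receptor signalling had 3 of 7 tested members higher. Cxcl10, a chemokine gene induced through interferon, rose by 3.17 ± 0.54 (SE; limma adjusted p = 0.00154) from 62 reads over the controls to 522. Its control values were uneven, from -3.02 to 1.02 on the log2 CPM scale and below every mimic library. Every mimic library was above the filter of -1 log2 CPM, so Cxcl10 could be tested whatever its control values. Without mimic replicates 3, 4 and 6 it did not reach -1 in 5 libraries and was not tested. That omission reflects the filter and the smaller mimic group, and says nothing of the size of the rise. Ccl5, a chemokine gene, rose by 2.40 ± 0.20 (limma adjusted p = 1.88e-07) from 52 to 384. Ptgs2, cyclooxygenase 2, rose by 0.44 ± 0.15 (limma adjusted p = 0.0343) and was not called without mimic replicates 3, 4 and 6 (0.33, adjusted p = 0.253). Il6, Il12a, Il12b, Nos2 and Ifnb1 were too low to test. For scale, the 12 interferon-response genes set beside them were all higher, beside 15.4% of all tested genes. They were chosen with earlier results of these data known. Their median difference was 2.05, against 0.35 for the 10 members.

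**Figure D5:**
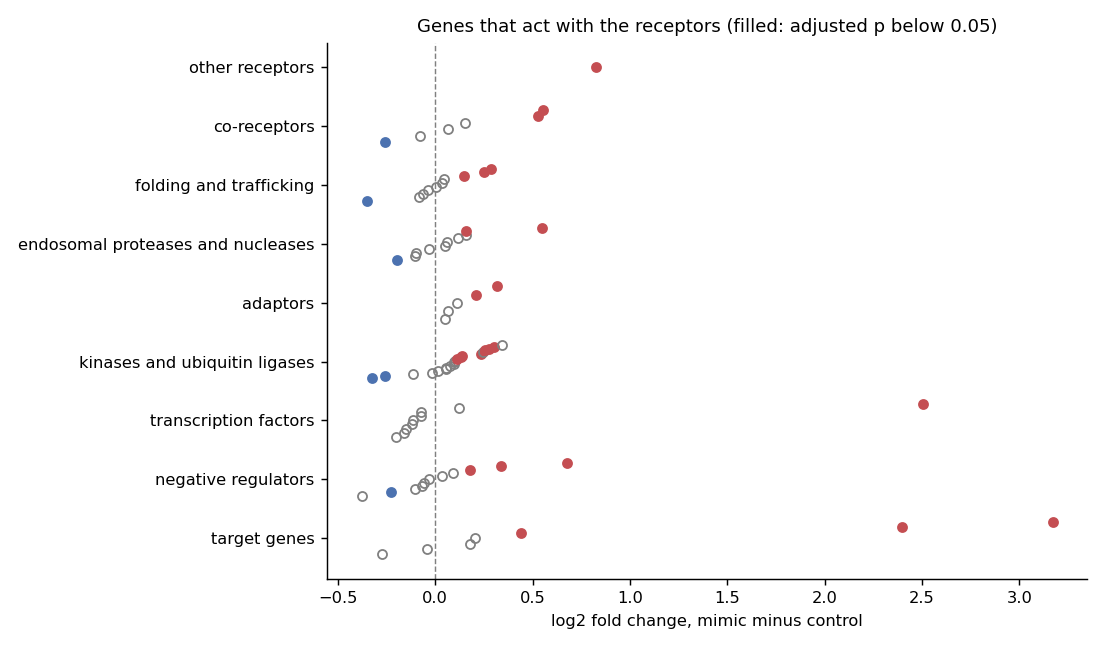
The horizontal axis is the log2 fold change (mimic minus control) and each row is a list of genes that act with the receptors; each circle is 1 tested gene, filled red if called higher, filled blue if called lower and open if neither. Most circles lie within 0.5 of 0, and Irf7 (2.51), Ccl5 (2.40) and Cxcl10 (3.17) lie far to the right.

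Genes with the most similar pattern over the 11 libraries were ranked by Pearson r among 8356 genes, as a description that includes the group difference. Among the endosomal receptors, Tlr3 was nearest to Adap2 (0.988), Tor1aip1 (0.985) and Rnf213 (0.985). Tlr7 was nearest to Morc3 (0.998), Gm8995 (0.996) and AI607873 (0.994), and Tlr8 to Pdcl3 (0.99), Coa5 (0.988) and Lims1 (0.984). Tlr13 was nearest to Plek (0.993), Cyld (0.991) and Pdcl3 (0.987), and the scarce Tlr9 to Lpar6 (0.939), Rabl3 (0.935) and Gpr160 (0.929). For Unc93b1 the genes were Zbtb7b (0.978), Exoc7 (0.976) and Hexa (0.974). On the cell surface, Tlr4 was nearest to Dennd1b (0.99), Flrt2 (0.986) and Psme4 (0.986), and Tlr1 to Wdfy2 (0.967), Tpm3 (0.966) and Tcf12 (0.963). Tlr2 was nearest to Cutc (0.959), Vav1 (0.944) and Cd40 (0.931), while Tlr6 reached lower values with Strn3 (0.899), Haus2 (0.898) and Lactb2 (0.893). In deviations from the group means, which leave the group difference out, Tlr8 and Tlr13 were each the nearest gene to the other (r = 0.992). Unc93b1 was then nearest to Zdhhc7 (0.992), Lyl1 (0.985) and Naglu (0.983), and Tlr7 to Morc3 (0.977), Daam1 (0.976) and Ankrd12 (0.974). These deviations share the contrast of mimic replicates 3, 4 and 6 with the rest, and depth and scaling are common to all genes of a library.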

How the data were processed

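RNA sequencing of total RNA from 11 libraries (5 control, 6 mimic) was used; group and replicate number come from the titles. The submitters prepared 12 samples and left out 1 for improper fragmentation, which is not analysed here. Tools named by the submitters' processing notes are edgeR, featureCounts, STAR and Subread, without roles or versions. Genome build and strand setting are not given in the sources used here. Per library, the authors deposited log2 CPM, formed from whole reads plus 0.5 over a scaled total, and reads were recovered from 100% of values (within 0.01 read). The authors' deposited table also gives p-values, log2 fold changes and a signed fold per gene, whose test is not stated. Its test statistic and log odds, scores made by the authors per the file headers, were not used.

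The first row per gene ID was kept (31936 of 32265 rows). Because the unit is log2, limma 3.58.1 in R 4.3.3 (statmod 1.5.0) was fitted to the 12969 genes that reached -1 log2 CPM in 5 or more libraries, with an intensity trend, robust moderation and a group term. Adjusted p-values are Benjamini-Hochberg over all of them, and a gene was called below 0.05. The fit was tested on simulated data. Members and lists were chosen with earlier results of these data known. All members were named; of each list, up to 4 called members by smallest p, otherwise up to 2, and for likeness the 3 genes with the highest r among those whose mean log2 CPM reached 3. Coordinates and exon lengths are from GENCODE M21 (GRCm38). The omission of mimic replicates 3, 4 and 6 and the length correction (lowess, span 0.3) were chosen after seeing the data. Plots used matplotlib 3.10.9.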

Additional observations from a re-analysis of the deposited data

Results flagged for a closer look

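Tlr9 in mimic replicate 6 lay apart from the other mimic libraries: its log2 CPM was 0.43, against 0.94 to 1.23 in the other 5, a gap of 0.641 of the group's range. The value rests on 34 reads. Of 20 groups of values checked in this way (10 genes in each of the 2 groups) 1 was marked, and chance marks about 1 in 20.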

How the results depend on the processing

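Directions and calls held in every alternative run for Tlr1, Tlr3, Tlr4, Tlr6, Tlr7, Tlr8 and Tlr13. With each library left out in turn, Tlr2 ran from 0.18 to 0.24 and Tlr9 from 0.44 to 0.64, with their calls lost in the cases named above, and Unc93b1 ran from -0.087 to 0.015, turning positive without mimic replicate 4 (0.014) or mimic replicate 6 (0.015). Without mimic replicates 3, 4 and 6 Unc93b1 was 0.14. At a threshold of 0.01, Tlr2 (0.21) and Tlr9 (0.53) were not called. The count of members higher was 6 to 8 with each library left out and 0 were lower in each. For pathway genes these counts were 19 to 27 higher and 4 to 10 lower. Over the same fits 11.5% to 20.9% of all genes were higher and 10.9% to 19.4% lower. The voom fit had 31 higher and 12 lower, beside 22.8% and 20.5% of all genes. The threshold of 0.01 left 15 higher and 3 lower, and the share of all genes at that threshold was not computed. With the longest transcript as length, 4 members changed place in the mimic group. With the replicate number as a replicate block 8 members were higher. In that fit 21 pathway genes were higher and 7 lower, beside 13.7% and 13.8% of all genes. Deviations of same-numbered libraries correlated by -0.061 to 0.062, and only control replicate 4 correlated best with its own number. The labels do not say what a shared number stands for. These correlations cannot decide it, since the deviations also hold the pattern of mimic replicates 3, 4 and 6. Precision is limited by reads for Tlr9 and Tlr11; the shared sequence of Tlr1 and Tlr6 and the pattern of mimic replicates 3, 4 and 6 limit the other values, and their part in the results was not tested further.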
